A study of Mus musculus with 4 samples.

Results

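Pairs of distal intergenic bins made up 6915 of the 237102 significant H3K4me3 HiChIP interactions of mouse macrophages (2.92%, 95% Wilson interval 2.85 to 2.98%). In these pairs neither 5-kb bin lay within 5000 bp of an annotated transcription start site (TSS) of any kind, and neither overlapped the body of a protein-coding gene. The cells were bone marrow-derived macrophages (BMDMs) of C57BL/6J mice, differentiated with M-CSF for 7 days. One group of 2 samples was left untreated (basal) and the other group of 2 samples received 20 ng/mL IL-4, the cytokine of alternative activation, for 24 h. All cells were of this single strain and carried no engineered allele named in the labels. The 4 samples were merged before interactions were called, so each pair has 1 observed and 1 expected count. Basal and IL-4-treated cells were therefore not compared, and there is no replicate error. The depth of each sample is unknown. The tests below treat each of the 19 autosomes as 1 unit, so p-values refer to variation among chromosomes and not among cultures.

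HiChIP ligates DNA ends that lie close together in the nucleus and enriches them with an antibody, here to H3K4me3, which marks active promoters. The caller used by the authors, MAPS, tests only bin pairs in which a bin holds an H3K4me3 peak. At least 1 bin of every intergenic pair was thus marked, although no annotated start lay near it. Such sites can be enhancers with a low level of the mark, promoters of transcripts that an annotation lacks, or genes of classes it leaves out. Which bin held the peak is not given in the list, and the peaks were not analysed here.

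The member pairs used 7116 different bins, and a few of these bins occurred in many pairs. The sequences of 5 of the 6 leading bins, with 37 to 70 member pairs each, are shown first. For each the 200-base window with the most CpG dinucleotides is given, since CpG density marks many mammalian promoters, with each CG in capitals. Sequences are from the GRCm38.p6 assembly of RefSeq and positions are in mm10.
Bin near Chd7 (chr4:8647279-8647478, plus strand): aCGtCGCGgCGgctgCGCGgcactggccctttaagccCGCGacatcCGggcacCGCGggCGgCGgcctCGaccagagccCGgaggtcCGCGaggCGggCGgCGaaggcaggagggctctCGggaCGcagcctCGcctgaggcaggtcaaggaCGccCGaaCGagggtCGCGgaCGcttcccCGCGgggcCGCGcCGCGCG
Bin near Nufip1 and Tsc22d1 (chr14:76152043-76152242, plus strand): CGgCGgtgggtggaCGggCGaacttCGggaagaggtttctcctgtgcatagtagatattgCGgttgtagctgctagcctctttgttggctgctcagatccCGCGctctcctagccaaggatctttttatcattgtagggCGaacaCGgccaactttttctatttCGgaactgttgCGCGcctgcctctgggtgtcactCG
Bin near Dusp4 (chr8:34689487-34689686, plus strand): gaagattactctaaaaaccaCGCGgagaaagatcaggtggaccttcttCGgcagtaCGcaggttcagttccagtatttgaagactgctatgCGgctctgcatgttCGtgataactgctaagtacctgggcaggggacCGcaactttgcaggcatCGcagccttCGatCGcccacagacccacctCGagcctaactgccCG
Bin near Nrp1 (chr8:128166051-128166250, plus strand): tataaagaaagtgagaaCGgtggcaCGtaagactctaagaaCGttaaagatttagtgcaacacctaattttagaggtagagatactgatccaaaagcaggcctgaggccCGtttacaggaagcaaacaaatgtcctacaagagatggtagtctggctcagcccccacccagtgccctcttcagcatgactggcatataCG
Bin near Haao (chr17:83861570-83861769, plus strand): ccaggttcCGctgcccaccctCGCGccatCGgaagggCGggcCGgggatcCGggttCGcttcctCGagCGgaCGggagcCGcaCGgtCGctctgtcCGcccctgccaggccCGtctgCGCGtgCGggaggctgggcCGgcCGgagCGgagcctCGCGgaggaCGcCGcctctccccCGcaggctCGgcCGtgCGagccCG

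The windows differed widely in CpG content. The bin near Chd7 held 36 CpG in its window, a number that 0.00505% of the 178313 unlisted intergenic bins reached or passed. The start of Gm8273, a RefSeq long non-coding RNA on the minus strand, lay inside this window at position 8647457 of chromosome 4. The bin near Haao held 31 CpG, reached by 0.0224% of unlisted bins, and no RefSeq start lay in it. The bin near Nufip1 and Tsc22d1 held 14 CpG (3.70% of unlisted bins), and the bin near Dusp4 held 12 (6.41%). In the bin near Dusp4, the start of the RefSeq long non-coding RNA Gm46069 lay 272 bases from the window. The bin near Nrp1 held 5 CpG, and 56.6% of unlisted bins held as many or more.

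Intergenic pairs spanned intermediate distances. The quartiles of the distance were 70, 165 and 335 kb, and the limits were 10 and 1000 kb. Pairs of a promoter bin with an intergenic bin (n = 32151) had a median of 225 kb, and pairs of distal bins inside the body of 1 protein-coding gene (n = 4149) a median of 70 kb. Per chromosome, the median of intergenic pairs minus that of promoter-intergenic pairs was -62.9 kb ± 29.8 (SD over 19 chromosomes), negative on all 19 (two-sided sign-flip permutation test, p = 1e-05, the smallest that 100000 resamples can give). They were longer than intragenic pairs by 97.6 kb ± 30.9, again on all 19 chromosomes (permutation p = 1e-05). Distances over 500 kb were found in 12.6% of intergenic pairs, 19.8% of promoter-intergenic pairs and 0.892% of intragenic pairs. A pair inside a gene cannot be longer than that gene. Distances were not compared at equal expected count, the count given by the authors' model.

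An intergenic pair had 6 to 593 observed counts (median 19). The expected count of the authors' model had a median of 5.18. Observed over expected had a median of 3.43 and reached 30.1. No listed interaction had a ratio below 2, so all ratio values are from a list without lower ratios. Promoter-intergenic pairs had a median count of 30 and a median ratio of 3.22, and intragenic pairs 31 and 2.70. A ratio of 10 or more was reached by 85 intergenic pairs (1.23%), by 1.20% of promoter-intergenic pairs and by 0.121% of intragenic pairs.

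Within distance ranges, the ratios of intergenic and promoter-intergenic pairs parted with distance. Between 10 and 50 kb the median ratios were 2.39 and 2.50, and between 400 and 1000 kb they were 5.19 and 4.08. Averaged over 5 distance ranges, the log2 ratio of intergenic pairs was higher by 0.17 ± 0.047 (SD) on 19 of 19 chromosomes (sign-flip permutation test, p = 1e-05). The expected counts differed in the same ranges. Their medians were 24.7 for intergenic and 60.1 for promoter-intergenic pairs between 10 and 50 kb, and 2.24 and 4.05 between 400 and 1000 kb. Compared within ranges of both distance and expected count, the difference was 0.01 (permutation p = 0.531). Against intragenic pairs the log2 ratio was higher by 0.05 ± 0.054 on 16 of 19 chromosomes (permutation p = 0.00185), and the difference was -0.0022 ± 0.064 within ranges of expected count (permutation p = 0.879).

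**Figure D1:**
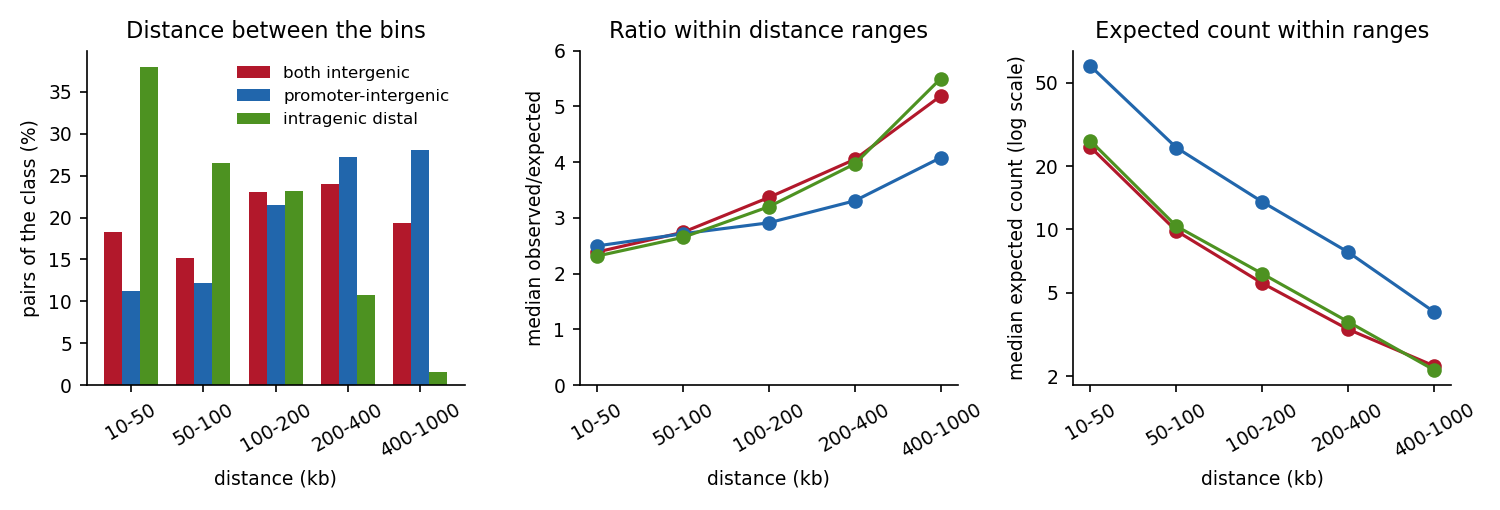
Share of pairs, median observed/expected ratio and median expected count (log axis) in 5 distance ranges in kb, for pairs with both bins intergenic (red), promoter-intergenic pairs (blue) and intragenic distal pairs (green). Intragenic pairs are mostly short, and the higher ratio of intergenic over promoter-intergenic pairs at long distances goes with a lower expected count.

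Pairs on both sides of the rule's edge had these values. The 2590 member pairs with a bin 5 to 10 kb from a TSS had a median distance of 170 kb, count of 20 and ratio of 3.42. The 2193 pairs that failed the rule only by a TSS at 2500 to 5000 bp had 170 kb, 19 and 3.38. Of the 223217 autosomal bins that meet the rule, 14.3% were in any listed interaction and 3.19% in a member pair, whereas 36.3% of all other bins were in a listed interaction. Member bins lay a median of 19.9 kb from the nearest TSS of any kind and 51.1 kb from the nearest protein-coding TSS, and the farthest lay 1698 kb from one. The body of a non-coding gene was overlapped by 931 member bins (13.1%).

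The pairs were concentrated on few bins. The caller tests only pairs with a peak bin, so the number of pairs per bin depends on which bins held peaks. Of the 7116 member bins, 5106 (71.8%) were in 1 member pair, 1482 (20.8%) in 2 to 4, 353 in 5 to 9 and 175 in 10 or more. The 528 bins with at least 5 member pairs, called hub bins here, took part in 4881 of the 6915 pairs (70.6%). At most 1545 member pairs could be chosen so that no bin was used again. Joined through shared bins, the pairs formed 1028 loci, of which 356 were a single pair, and the 170 loci of at least 10 pairs held 4648 pairs (67.2%). In 205 pairs (2.96%) both bins were hub bins, at a median distance of 180 kb. Neighbouring pairs also clustered: the authors' clusters that held a member numbered 3003 of 58277, and 39.6% of member pairs shared a cluster with a pair that had a protein-coding promoter bin.

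Hub bins differed in sequence from bins with 1 member pair. Their GC content was higher by 1.62 percentage points ± 0.695 (SD over 19 chromosomes), and their ratio of observed to expected CpG was 0.243 against 0.188 (both on 19 of 19 chromosomes, sign-flip permutation test, Benjamini-Hochberg adjusted permutation p = 2e-05 over 6 features). Soft-masked repeats covered 25.1% of hub bins and 30.6% of single-pair bins (adjusted permutation p = 2e-05). With 1 pair per cluster the GC difference was 0.547 points (permutation p = 0.341). PU.1 matches lay in 34.1% of hub and 29.0% of single-pair bins (adjusted permutation p = 0.024), a call lost in 6 of 8 alternatives, and CTCF matches in 6.37% and 4.27% (adjusted permutation p = 0.0879). The CTCF difference passed at a TSS margin of 2500 bp (2.72 points, adjusted permutation p = 0.00827) and was -2.25 points with 1 pair per cluster (adjusted permutation p = 0.341). A window of 200 bases with at least 12 CpG was found in 6.80% of single-pair bins, 11.5% of bins with 2 to 4 pairs, 20.7% with 5 to 9 and 31.6% with 10 or more. The share was 6.41% of unlisted intergenic bins and 57.9% of promoter bins. The count of 12 was set after the windows of the leading bins were seen. Whether differences between hub and single-pair bins, here and below, follow the placing of peaks was not tested.

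RefSeq, which holds predicted transcripts that GENCODE M21 lacks, placed a transcript start inside 443 member bins (6.23%, 95% interval 5.69 to 6.81%), and inside 2959 of 178313 unlisted intergenic bins (1.66%). The difference per chromosome was 4.61 percentage points ± 1.40 (SD), positive on 19 of 19 chromosomes (sign-flip permutation test, p = 1e-05). The share was 5.03% of bins with 1 member pair, 7.62% with 2 to 4, 12.2% with 5 to 9 and 17.1% with 10 or more. Hub bins exceeded single-pair bins by 9.81 points ± 7.12 on 18 of 19 chromosomes (adjusted permutation p = 3e-05). Where bins within 5000 bp of a RefSeq start were also removed, 4388 pairs remained.

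**Figure D2:**
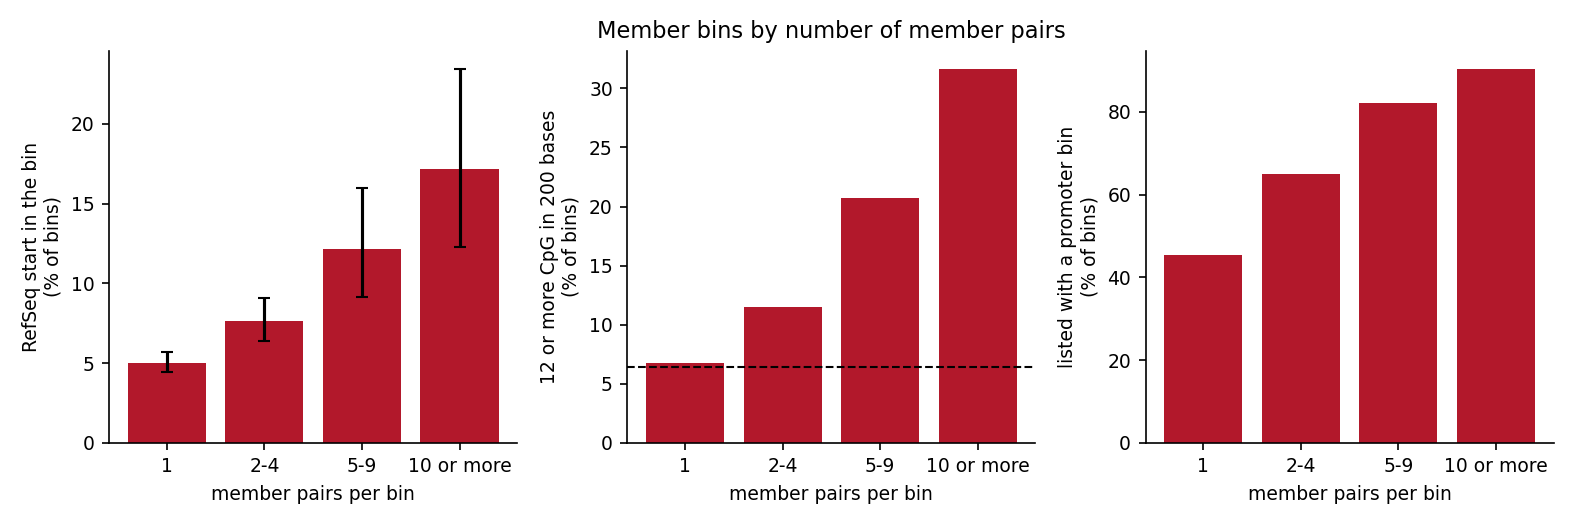
Share of member bins (%) with a RefSeq transcript start (bars with 95% Wilson intervals), with a 200-base window of 12 or more CpG, and with a listed interaction to a protein-coding promoter bin, by number of member pairs per bin. All 3 shares are higher in bins with more member pairs, and the dashed line is the 6.41% of unlisted intergenic bins with such a CpG window. Which bins held the H3K4me3 peaks required by the caller was not known.

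Transfer RNA genes, which RNA polymerase III transcribes, are in RefSeq but not in the GENCODE set behind the rule, and some member bins held them. Of 7110 member bins with at least 4500 known bases, 41 held a tRNA gene (0.577%), and 18 of these were hub bins. Of 178313 unlisted intergenic bins, 45 did (0.0252%). The difference was 0.476 percentage points ± 0.764 (SD), positive on 12 of 19 chromosomes (sign-flip permutation test, p = 0.00067), and 0.325 points ± 0.404 without chromosome 13 (permutation p = 0.00164). These genes were counted after the tRNA-rich locus on chromosome 13 had been seen. In 256 member pairs at least 1 bin held a tRNA gene, and in 41 pairs both did.

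Member bins were richer in GC and poorer in repeats than unlisted intergenic bins. Unlisted bins can include bins that the caller never tested. Of the 31823 listed bins that meet the rule, 7116 were member bins, and the others were not compared. Whether differences from unlisted bins, here, above and below, are particular to member bins among listed bins was not tested. GC content was 44.0% in member bins and 40.1% in unlisted intergenic bins (difference 3.86 points ± 0.799, adjusted permutation p = 1.33e-05 over 4 features), and soft-masked bases made up 29.9% and 39.9% (adjusted permutation p = 1.33e-05). The GATC sites cut by MboI numbered 2.60 and 2.57 per kb (difference 0.0278, adjusted permutation p = 0.0213). This difference was 0.0966 within 5 GC strata (adjusted permutation p = 1.33e-05), 0.114 at a false discovery rate under 1e-06 (adjusted permutation p = 8e-05) and 0.00212 at ratios of at least 4 (adjusted permutation p = 0.874). The difference in soft-masked bases was -9.95 points, and -5.91 points within GC strata (adjusted permutation p = 1.33e-05). Since motif matches follow GC content, motifs were compared both with all unlisted intergenic bins and within 5 GC strata.

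CTCF, the zinc-finger protein that holds chromatin loops at its sites, had the motif with the largest fold among the 10 searched. Its core consensus, searched on both strands, was found in 4.82% of member bins, 1.42% of unlisted intergenic bins, 2.48% of all bins and 4.03% of promoter bins. Matches per kb were 3.61 times as dense in member as in unlisted bins, and 2.08 times within GC strata, in each case on 19 of 19 chromosomes (sign-flip permutation test, adjusted permutation p = 1.11e-05 and 3.33e-05). The PPAR-RXR site, AGGTCA repeated with 1 base between and the site of lipid-sensing nuclear receptors, was found in 1.41% of member and 0.575% of unlisted bins (2.52-fold per kb, and 1.42-fold within GC strata with adjusted permutation p = 0.017). The share over all bins was 0.880%, and the call was lost with 1 pair per cluster (adjusted permutation p = 0.106).

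Motifs of macrophage regulators differed by less. RUNX (TGTGGTT), the motif of a family that acts early in blood development, was in 71.8% of member bins, 68.5% of unlisted bins and 70.2% of all bins, and its density was 1.12 times as high both overall and within GC strata (adjusted permutation p = 1.11e-05 and 3.33e-05). AP-1 (TGANTCA), the motif of Fos and Jun dimers, was in 81.2%, 78.4% and 78.5% of these bins, with 1.07-fold density in both comparisons (adjusted permutation p = 0.00011 and 0.000725). C/EBP (TTGCNNAA), the motif of a family of myeloid regulators, was less dense in member bins, at 0.843-fold overall and 0.954-fold within GC strata (adjusted permutation p = 1.11e-05 and 3.33e-05), with a match in 88.7% of member, 92.7% of unlisted and 90.4% of all bins. These 3 motifs are short enough to be found in most bins.

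Other motifs lost their difference or turned its direction within GC strata. The strata are ranges, so GC content could still differ inside them. PU.1 (GAGGAAGT), the motif of the macrophage lineage factor, was in 30.2% of member, 26.5% of unlisted and 26.9% of all bins, and its 1.19-fold density fell to 1.03-fold within GC strata (adjusted permutation p = 0.167). EGR (GTGGGCG), the motif of Egr2 and its relatives, was in 14.5%, 8.16% and 11.7%, with a 1.86-fold density that fell to 1.05-fold (adjusted permutation p = 0.227). STAT6, the factor activated by IL-4, whose motif has TTC and GAA with 4 bases between, was in 76.9%, 80.9% and 78.7%, at 0.896-fold overall and 0.981-fold within GC strata (adjusted permutation p = 0.167). The IRF motif, GAAA repeated with 2 bases between, turned from 0.881-fold to 1.05-fold (adjusted permutation p = 0.00982 within GC strata), and was in 55.9% of member, 61.8% of unlisted and 57.3% of all bins. The Maf half-site (TGCTGAC) turned from 1.11-fold to 0.945-fold (adjusted permutation p = 0.0015), and was in 52.0%, 47.5% and 50.4%. A match is a run of letters and not a bound site.

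**Figure D3:**
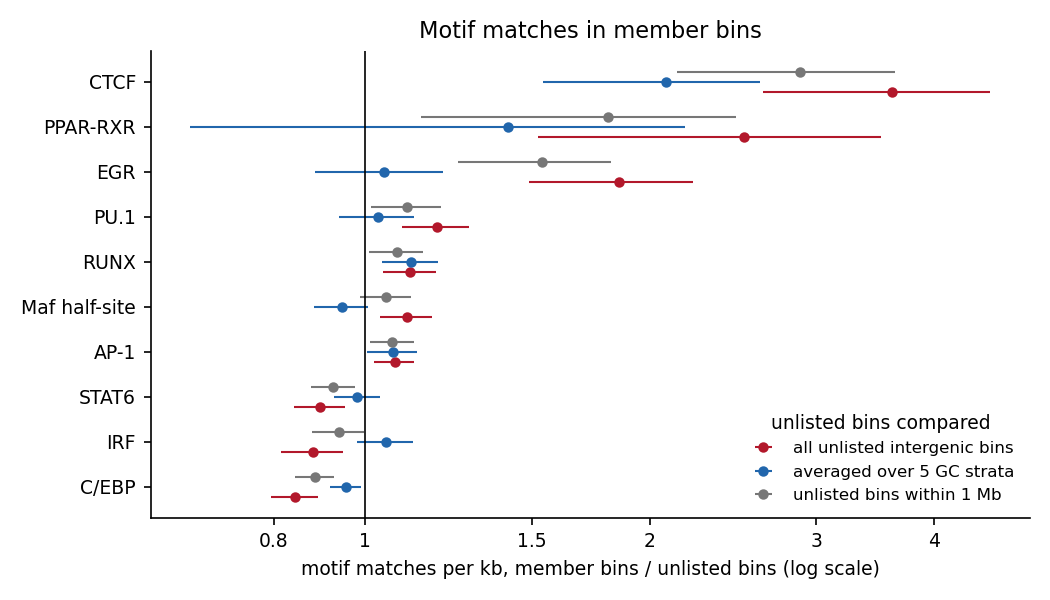
Ratio of motif matches per kb in member bins to unlisted intergenic bins (log axis) for 10 motifs, against all unlisted bins (red), averaged over 5 GC strata (blue) and against unlisted bins within 1 Mb (grey), with bars of 1 SD of the difference over 19 chromosomes relative to the unlisted density. CTCF lies at 3.61, 2.08 and 2.89, and the Maf half-site and IRF lie on opposite sides of 1 with and without GC strata.

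CTCF sites that anchor loops often face each other. Both bins held matches of 1 orientation each in 18 member pairs, of which 7 were convergent, 1 was divergent and 10 had the same orientation. The convergent share exceeded the divergent share by 30.8 percentage points ± 43.5 over the 13 chromosomes with such pairs (sign-flip permutation test, p = 0.0633), which did not pass the threshold. The difference was positive on 5 of these chromosomes, and the shares were equal on the rest. Chromosomes with equal shares add nothing to a sign-flip test. With 5 unequal chromosomes its smallest possible p-value lies above the threshold, so the main test could not pass. The difference passed when bins overlapping any gene body were left out (41.7 points, permutation p = 0.0311), where more chromosomes were unequal. It passed in no other alternative run. The test therefore cannot decide whether convergent pairs are more frequent. At a TSS margin of 10000 bp it was 13.6 points (permutation p = 0.626). Promoter-intergenic pairs had 36 convergent, 12 divergent and 37 same-orientation pairs of 85. The 60 bases around the match are shown for the 4 convergent pairs with the highest ratio, 5′ to 3′ on the strand of the match with the consensus match in capitals. The 490-kb and 225-kb pairs had the same right bin.
Npvf and Skap2 region, left bin of the 490-kb pair (chr6:50679320-50679379, plus strand): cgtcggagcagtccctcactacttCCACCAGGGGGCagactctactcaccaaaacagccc
Npvf and Skap2 region, right bin of the 490-kb and 225-kb pairs (chr6:51168212-51168271, minus strand): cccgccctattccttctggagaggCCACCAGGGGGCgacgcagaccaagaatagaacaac
Chromosome 13, left bin of the 85-kb pair (chr13:117203033-117203092, plus strand): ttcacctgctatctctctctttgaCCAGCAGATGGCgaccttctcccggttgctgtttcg
Chromosome 13, right bin of the 85-kb pair (chr13:117287100-117287159, minus strand): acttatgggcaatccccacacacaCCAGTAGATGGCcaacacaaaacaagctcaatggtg
Npvf and Skap2 region, left bin of the 225-kb pair (chr6:50940277-50940336, plus strand): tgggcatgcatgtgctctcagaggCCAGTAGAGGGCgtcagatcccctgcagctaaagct
Chromosome 12, left bin of the 715-kb pair (chr12:72847974-72848033, plus strand): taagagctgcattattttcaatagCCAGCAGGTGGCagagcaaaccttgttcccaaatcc
Chromosome 12, right bin of the 715-kb pair (chr12:73560263-73560322, minus strand): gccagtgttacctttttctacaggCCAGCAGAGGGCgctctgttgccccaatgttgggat

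The pair at 490 kb had 27 counts and a ratio of 6.70, and the pair at 225 kb had 30 counts and 5.53. The 85-kb pair on chromosome 13 had 61 counts and a ratio of 6.30. The 715-kb pair on chromosome 12 had 8 counts and 4.55.

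Member bins were also listed with promoters. Of the 7116 member bins, 3729 (52.4%) were also listed with a bin holding a protein-coding TSS, and 6090 member pairs (88.1%) had such a bin at 1 end or both. These shares were not set against other bins or pairs. Bins listed with a TSS bin made up 45.4% of bins with 1 member pair and 90.3% of bins with 10 or more. In 2139 pairs (30.9%) both bins were listed with the same promoter bin. This promoter lay outside the interval between the bins in 1691 of these pairs (79.1%), between them in 366 (17.1%), and both kinds occurred in 82. Of intragenic pairs, 1306 of 4149 (31.5%) shared a promoter in this way, and the difference per chromosome was -3.70 points ± 14.9 (SD), positive on 8 of 19 chromosomes (sign-flip permutation test, p = 0.302). The shares were not compared at equal distance, although intragenic pairs were shorter, so this result does not show the classes to be alike. No protein-coding TSS bin lay between the bins in 3735 pairs (54.0%), and the most crossed by 1 pair was 44. Both bins had the same nearest protein-coding gene in 2561 pairs (37.0%).

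The strongest contacts by count were short and those by ratio long. The highest count was 593 (expected 150.0), between chr17:83860001-83865000 and a bin 10 kb away near Haao, which encodes an enzyme of tryptophan breakdown. A pair 10 kb apart near H3f3a, a histone H3.3 gene, had 510 counts, and a 40-kb pair near Fam83a on chromosome 15 had 335. The highest ratio was 30.1, from 79 counts against 2.63 expected, between chr10:21465001-21470000 and chr10:22005001-22010000. These bins are 540 kb apart, and the second lies 10.3 kb from Sgk1, which encodes a serum- and glucocorticoid-induced kinase. The only protein-coding promoter bin listed with this second bin was that of Aldh8a1, not of Sgk1. Other pairs at the top by ratio were an 890-kb pair on chromosome 10 (17.4, 26 counts) and a 630-kb pair on chromosome 2 between Thnsl1 and Myo3a (17.1, 36 counts). The nearest genes to the bins of the former were Btg1, an antiproliferative gene, at 192 kb, and Dcn, the decorin gene, at 165 kb. The rest of the leading 5 by count and by ratio belonged to the bins near Chd7 and Nufip1.

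The bin near Chd7, which encodes a chromatin remodeller, was the leading hub. At chr4:8645001-8650000 it had 70 member pairs, 15 to the left and 55 to the right, of 133 listed interactions. It lay 40.9 kb from the Chd7 TSS and was listed with the Chd7 promoter. Of its partners, 43 lay in 1 stretch of 305 to 555 kb to its right, beyond Chd7 and up to the region of Clvs1, a clathrin-vesicle gene. The strongest, chr4:9095001-9100000, had 130 counts against 6.07 expected (ratio 21.4), and its neighbour at 445 kb had 94 counts (17.4). The whole locus held 117 member pairs over 1320 kb, with 42 interactions between its bins and the promoter of Chd7 and 16 with that of Rab2a, a small GTPase of the early secretory pathway. In 32 of the 117 pairs (27.4%) both bins shared a promoter.

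The bin at chr14:76150001-76155000, 39.1 kb from Nufip1, had 67 member pairs, 61 of them to the right. From 110 to 250 kb to the right lay 28 partners, leading up to Tsc22d1, a leucine-zipper gene of the TGF-β response. The last of these, 10.0 kb from Tsc22d1, had 137 counts against 9.76 expected (ratio 14.0). A further stretch of 7 partners lay at 835 to 865 kb near Lacc1, an enzyme gene of macrophage metabolism, with ratios up to 8.77. In the locus of 81 pairs, Tsc22d1 was the leading promoter with 50 interactions, before Gpalpp1 and Nufip1 with 16 each.

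**Figure D4:**
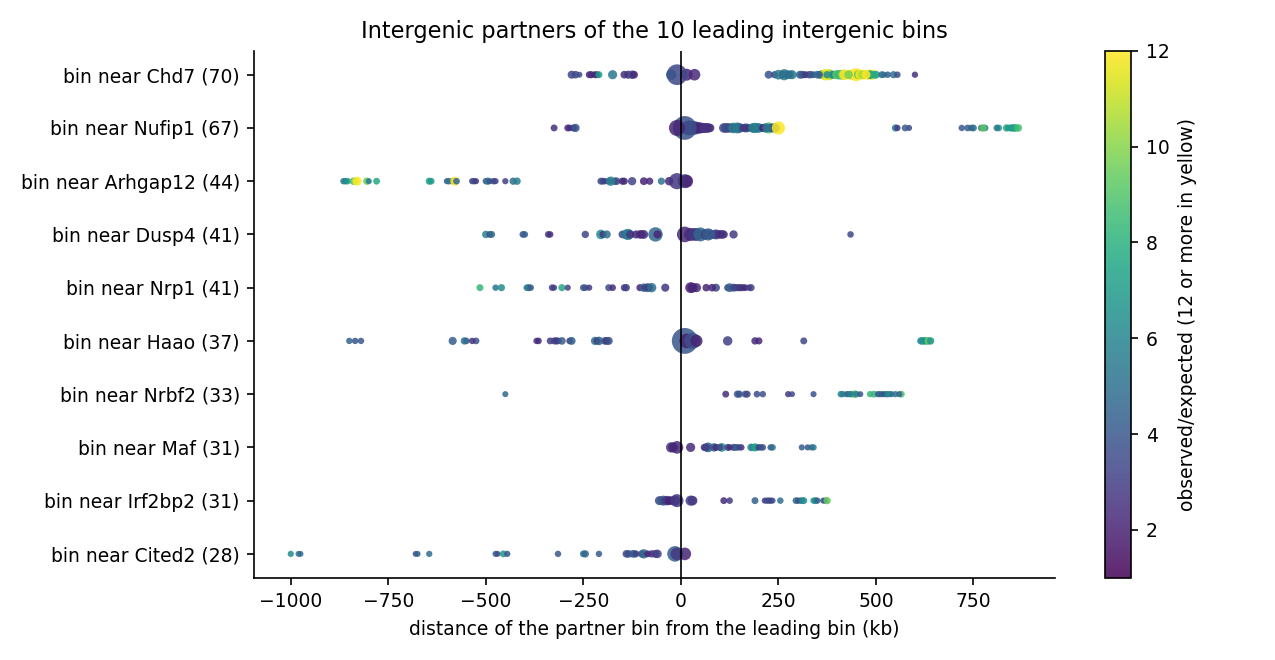
Distance in kb of every intergenic partner from each of the 10 leading intergenic bins, named by the nearest protein-coding gene with the number of member pairs in brackets. Colour is the observed/expected ratio and the area of a point follows the observed count. The bin near Chd7 has a block of high ratios at 305 to 555 kb, and several bins have nearly all intergenic partners on 1 side.

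One-sided intergenic partners recurred among the leading hubs. Partners near a TSS or in a protein-coding gene are left out by the rule, and the sides of all listed partners were not compared. The bin at chr10:67315001-67320000 was listed with the promoters of Egr2, an IL-4-induced zinc-finger factor, and Ado, a thiol dioxygenase gene. Of its 49 listed interactions 33 were member pairs, and 32 of these 33 intergenic partners lay to the right. None of these lay closer than 115 kb, while 9 lay at 410 to 460 kb and 13 at 485 to 565 kb, beyond Egr2 and Ado, with ratios up to 9.14 on 28 counts. Its locus held 87 pairs, and its bins had 19 interactions with the Ado promoter, 13 with that of Reep3, an endoplasmic reticulum gene, and 11 with that of Jmjd1c, a relative of histone demethylases. In 37 of these 87 pairs (42.5%) both bins shared a promoter. Near Maf, a macrophage transcription factor gene, chr8:115420001-115425000 had 28 of 31 partners to the right, towards Maf at 282 kb, with 14 of them at 60 to 155 kb. The bin at chr10:17680001-17685000, 38.2 kb from Cited2, a transcriptional co-regulator, had 27 of 28 partners on the side away from Cited2, at up to 1000 kb.

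Other leading hubs had partners on both sides. The bin at chr8:34685001-34690000 near Dusp4, a MAP kinase phosphatase gene, had 21 partners to the left and 20 to the right, of which 18 lay within 110 kb. It was listed with the promoters of Dusp4 and Leprotl1, and the locus of 85 pairs had 21 interactions with Leprotl1. The bin at chr8:128165001-128170000, 189 kb from Nrp1, a semaphorin and VEGF co-receptor gene, had 24 and 17, with 11 of them at 120 to 180 kb towards Nrp1. The bin near Haao, at chr17:83860001-83865000, had 23 and 14, and was listed with the promoters of Cox7a2l, Kcng3 and Thada. A stretch of 6 partners near Thada, at 615 to 640 kb, reached a ratio of 9.56. Near Irf2bp2, which encodes a transcriptional repressor, chr8:126550001-126555000 had 9 partners to the left, all within 55 kb, and 22 to the right with ratios up to 9.36.

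In 2 large loci most pairs shared a promoter. In the locus of Klf3, a Krüppel-like repressor gene, 99 pairs lay within 550 kb between Tbc1d1 and Tlr1, a Toll-like receptor gene. Its bins had 61 interactions with the Klf3 promoter and 58 of its pairs (58.6%) shared a promoter. Its strongest pair had 30 counts against 1.81 expected at 425 kb (ratio 16.6). In the locus of Jarid2, which encodes a cofactor of Polycomb repressive complex 2, 76 of 85 pairs (89.4%) shared a promoter. Of its interactions, 52 were with Jarid2 and 19 with Mylip, which encodes a ubiquitin ligase for the LDL receptor.

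In other loci fewer pairs shared a promoter than in the Klf3 and Jarid2 loci. Around Klf6, a macrophage transcription factor gene on chromosome 13, 85 pairs spanned 1820 kb, but only 1 of these pairs (1.18%) shared a promoter. The Klf6 promoter had 5 interactions with bins of this locus, of 9 listed in all. The locus around Npvf and Skap2 on chromosome 6 had 108 pairs, of which 8 (7.41%) shared a promoter. Its leading promoters were Hoxa4, a homeobox gene, with 10 interactions, and Hoxa9 and Snx10 with 6 each. Its strongest pair joined bins 960 kb apart with 23 counts (ratio 8.60). The locus around Tnfaip3, the gene of the NF-κB inhibitor A20, and Ifngr1, a subunit of the interferon-γ receptor, had 70 pairs, and each of these promoters had 9 interactions with its bins. The Tnfaip3 promoter had 13 listed interactions in all, and 10 of the 70 pairs (14.3%) shared a promoter. A bin at chr10:19185001-19190000 had 28 pairs there, 24 of them to the left, the strongest with 61 counts at 235 kb (ratio 10.1).

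The locus between Spred2 and Mdh1 on chromosome 11, which holds Sertad2 and Peli1, had 76 pairs. It was led by the promoter of Sertad2, a transcriptional co-regulator, with 20 interactions. A locus on chromosome 13 at 21155001 to 22000000 stood apart in its distances, with a median of 595 kb over 75 pairs. It holds olfactory receptor, zinc-finger and histone genes, and RefSeq has 52 tRNA genes in it. Of its 31 member bins, 17 held a tRNA gene, and 40 of the 41 member pairs with a tRNA gene in both bins lay there. Its highest ratio was 6.36, at 690 kb with 27 counts. The leading promoters were Prss16, a thymic serine protease gene, and Zfp184, a zinc-finger gene, with 8 interactions each.

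On chromosome 18, the bin at chr18:5985001-5990000 had 44 member pairs, 42 of them to the left. Its 2 strongest partners lay 580 kb away, with 48 counts against 3.11 expected (ratio 15.4), and 830 kb away, with 51 counts against 3.33 (15.3). The locus of 72 pairs was led by the promoter of Zfp438, a zinc-finger gene, with 15 interactions, and Zeb1, a repressor of epithelial genes, had 3. The 12 leading loci together held 1040 member pairs. By chromosome, the share of listed interactions with both bins intergenic ranged from 1.27% on chromosome 7 to 5.72% on chromosome 13.

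Genes were then ranked by the listed interactions between their promoter bins and member bins. Of 20720 autosomal protein-coding genes, 2624 had at least 1 (12.7%), which is 20.0% of the 13093 genes with any listed interaction at a promoter. Klf3 led with 62 of its 119 promoter interactions, followed by Jarid2 with 52 of 158, Tsc22d1 with 50 of 128 and Chd7 with 42 of 70. Plk2, a stress-induced kinase gene, had 40 of 155, Irf2bp2 35 of 69, Cited2 31 of 177 and Maf 30 of 204.

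The lists were read against the 12.7% of all genes and the 20.0% of genes with any listed promoter interaction. These references were not matched for the number of promoter interactions per gene. Of 36 macrophage lineage genes, 15 had an interaction with a member bin (41.7%). Maf led this list with 30 of 204, followed by Runx1, a haematopoietic transcription factor gene, with 15 of 153. Among those not reached, Spi1, the PU.1 gene, and Zeb2 each had 0 of 36, and Mertk had 0 of 42. Of 29 genes of IL-4 signalling and its collaborating factors, 15 were reached (51.7%), led by Bcl6, a repressor of inflammatory genes, with 23 and Pik3r1, a regulatory subunit of PI3 kinase, with 21. Egr2 had 5, while Stat6, the factor that IL-4 activates, had 0 of 26. Cebpb, a C/EBP family gene in both of these lists, had 14 of 27. The median of the IL-4 signalling list was 1, and that of the macrophage list and of all genes was 0.

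Of 37 IL-4-responsive genes, 10 were reached (27.0%), led by Plk2 with 40. Arg1, the arginase of alternatively activated macrophages, had 2 of 12. Of 32 immediate-early and AP-1 genes, 14 were reached (43.8%), again led by Plk2 and then Cited2 with 31. Egr2, Jun, Atf3, Fos and Klf4 were also among the reached genes of IL-4 signalling, so the shares are not separate results. Of 38 inflammatory genes and regulators, 12 were reached (31.6%), led by Tnfaip3 with 9 and Nfkbiz, an NF-κB co-regulator, with 8. Of 29 housekeeping genes, 7 were reached (24.1%), led by Ywhaz, a 14-3-3 protein gene, with 4 and the actin gene Actb with 3. All 4 of these lists had a median of 0.

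Lists of other cell types had shares below 12.7%. T and B lymphocyte genes were reached in 3 of 32 (9.38%), with 3 interactions for the T cell kinase gene Lck and 1 each for the T cell factor gene Lef1 and the B cell gene Ms4a1. Of 18 neutrophil genes 1 was reached (5.56%), the G-CSF receptor gene Csf3r with 4 interactions, and of 34 neuronal and developmental genes 1 was (2.94%). The lists also differed in how many genes had any listed promoter interaction, from 32 of 36 macrophage genes to 13 of 34 neuronal and developmental genes. Among genes with any, against 20.0% of all such genes, 46.9% of macrophage, 55.6% of IL-4 signalling, 34.5% of IL-4-responsive and 34.3% of inflammatory genes were reached, and 14 of 28 immediate-early and AP-1 genes. Housekeeping genes were reached in 24.1%, lymphocyte genes in 20.0%, neutrophil genes in 8.33% and neuronal and developmental genes in 7.69%.

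**Figure D5:**
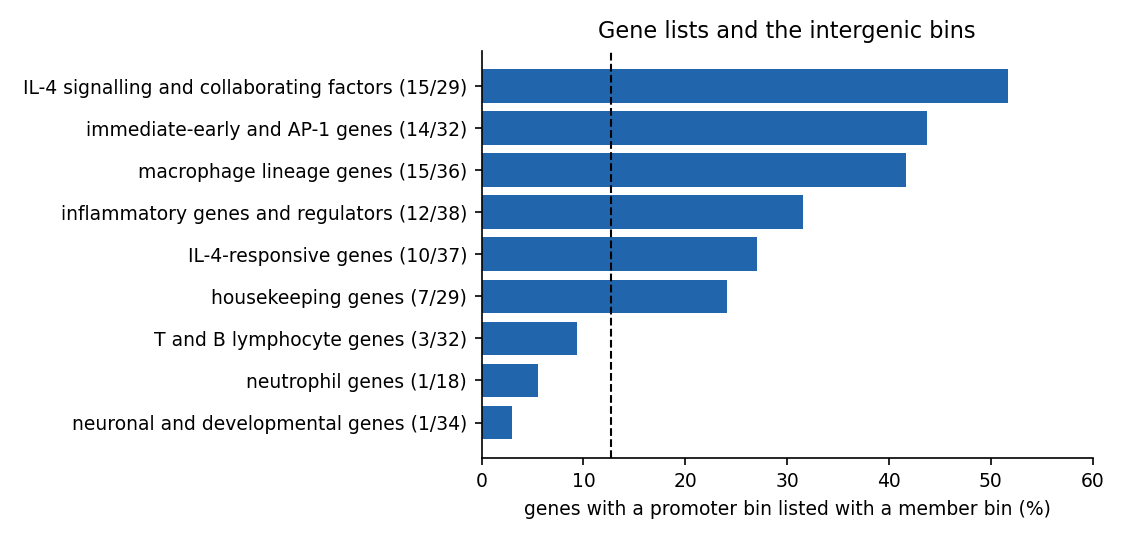
Share of genes (%) in each of 9 lists with a promoter bin listed with a member bin, with the number of genes reached and measured in brackets. The dashed line is the 12.7% of all autosomal protein-coding genes, and the lymphocyte, neutrophil and neuronal lists lie below it.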

How the data were processed

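H3K4me3 HiChIP was measured in 4 samples of BMDMs. The authors called interactions with MAPS at 5000-bp resolution on the merged reads, with H3K4me3 ChIP-seq peaks as anchors. Bowtie2, bedtools and the mm10 build are named in the submitters' processing notes. The deposited observed count, the expected count (a model score of the authors) and the false discovery rate, an adjusted p-value below 0.01 throughout, were used as deposited. The deposited cluster score (a summed −log10 p) was not used. MAPS models distance, GC content, restriction sites, mappability and enrichment, so ratios depend on that model. The lowest ratio in the deposited list was 2. The list holds autosomes only, and its depth per sample is not given in the sources used here.

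TSSs and gene bodies were from the GENCODE M21 basic set, and sequence and further transcripts from RefSeq on GRCm38.p6. Distances are between bin starts. Bins with at least 4500 known bases entered sequence comparisons, and motifs were counted on both strands. Each difference was taken within chromosomes, and its sign was flipped at random over them (two-sided permutation test, 100000 resamples). The procedure was tested on simulated data. Shares have 95% Wilson intervals, which cover counting error only, and neighbouring pairs are not independent. The named loci, bins, pairs and genes were the leading 12 loci, 10 bins, 5 pairs by count and by ratio and 2 genes of each list, and members named beside them were chosen after their values were seen. Some named items are not reported here. Member pairs, lists and tests were chosen with earlier results of these data known. Alternatives were stricter lists, other TSS margins, other comparison bins, GC strata and, added after the data were seen, RefSeq starts and strata of expected count. Python 3.11.15, numpy 2.4.6, pandas 2.3.3, statsmodels 0.14.6 and matplotlib 3.10.9 were used.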

Additional observations from a re-analysis of the deposited data

How the results depend on the processing

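The number of intergenic pairs depended on the stringency of the list and of the rule. It was 2504 at a false discovery rate under 1e-06, 2494 at ratios of at least 4, 2032 with 1 pair per cluster, 4325 with a TSS margin of 10000 bp and 4388 with RefSeq starts added after the data were seen. The number of genes reached was then 1165, 753, 690 and 1747 under the first 4 of these settings. The higher ratio than in promoter-intergenic pairs was 0.0107 (permutation p = 0.556) at ratios of at least 4 and 0.0122 (permutation p = 0.531) within strata of distance and expected count, both below the threshold, and against intragenic pairs it was -0.0022 in those strata. The CTCF orientation difference passed the threshold without gene bodies of any biotype (41.7 points, permutation p = 0.0311), and in no other alternative run. Its p-value is bounded by the number of chromosomes with unequal shares, so passing or not does not decide the question. Under 5 GC strata the differences in matches per kb reversed for the Maf half-site (-0.00858) and IRF (0.00872). With 1 pair per cluster, the hub differences in the share of bins with a match reversed for CTCF (-2.25 points) and PU.1 (-3.37 points). The cause of these changes was not tested. Of the alternative values for single features, 182 kept direction and call, 13 lost the call, 1 (hub CTCF at a TSS margin of 2500 bp) gained it and 5 reversed. Distances kept their direction and their call in every alternative run. The size of the difference from promoter-intergenic pairs varied. It ranged from -30.4 kb at a false discovery rate under 1e-06 to -129 kb with 1 pair per cluster. No paired analysis was possible because the list is pooled over all 4 samples. The pooled list limits every value to a single measurement. Counts of distant pairs were low, with a median of 12 between 400 and 1000 kb.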
